A study of Mus musculus with 10 samples.

Results

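Notch signalling was followed through 10 genes picked by symbol: the receptors Notch1, Notch2 and Notch3, the ligands Jag1, Jag2 and Dll1, the DNA-binding factor Rbpj, and the target genes Hes1, Hey1 and Heyl. All 10 were found among the 24454 genes of the count table, and all 10 were among the 15543 genes with enough counts to be tested. The samples were full-thickness biopsies of treated back skin without tumor, 1 RNA-seq library per mouse, from 5 wild-type (WT) littermates and 5 Zfp36ΔARE mice on the C57BL/6 strain. Zfp36ΔARE mice lack an AU-rich instability motif in the 3′-UTR of their own Zfp36 gene. Zfp36 encodes tristetraprolin (TTP), an RNA-binding protein that speeds the decay of mRNAs with AU-rich elements. The deletion is carried in all cells of the animal, so the comparison cannot assign a difference to keratinocytes or to any other cell type. Mice of both groups were 7 weeks old at the start and received the same treatment: 400 nmol of the mutagen DMBA once on shaved back skin, then 10 nmol of the tumor promoter TPA in repeated applications for 20 weeks. Untreated skin and tumors were not analysed here.

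Notch receptors sit at the cell surface and are activated by ligands of the Jagged and Delta-like families on a neighbouring cell. Binding leads to cleavage of the receptor, first by ADAM metalloproteases and then by the gamma-secretase complex. The freed intracellular domain enters the nucleus, joins RBPJ and Mastermind coactivators, and switches on targets such as the Hes and Hey repressors. In mouse epidermis, Notch signalling drives keratinocytes out of the basal layer into differentiation and is known as a tumor suppressor, and it is also needed to maintain the hair follicle. In blood vessels Notch3 marks the smooth muscle and pericyte layer, while Notch4 and Dll4 belong to the endothelium.

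Depth ran from 19595035 to 36419573 counts per library. Zfp36 itself had 1824 to 2496 normalized counts in WT and 4196 to 6134 in Zfp36ΔARE libraries, where a normalized count is the count scaled by TMM factors to the mean effective library size. Some features of the libraries moved with the groups. Y-linked genes had 3349 to 4262 counts in Zfp36ΔARE replicates 2 to 5 and at most 1 count in the other libraries, so that these marks of sex and the genotype cannot be told apart beyond the values of Zfp36ΔARE replicate 1. The hair shaft score, the mean log2(CPM + 1) of 11 hair keratin and related genes, was 2.59 in WT replicate 3, 5.24 in WT replicate 1, 7.58 to 7.99 in the other WT libraries and 8.71 to 10.0 in Zfp36ΔARE libraries. The part of either in the results was not tested beyond the fits given with them.

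Of the 10 Notch genes, 5 were higher in Zfp36ΔARE skin (Notch1, Notch2, Jag1, Hes1 and Heyl) and 1, Rbpj, was lower, in edgeR's quasi-likelihood test, taking an adjusted p (Benjamini-Hochberg, over all tested genes) below 0.05 as passing. Jag2, Dll1, Notch3 and Hey1 did not pass. The share of all tested genes that passed was 34.3%, with 15.3% higher and 19.1% lower, so a large part of the transcriptome differed and 6 of 10 is to be read against that share. The median log2 fold change was 0.24 over the 10 genes and 0.0076 over all tested genes. None of the 10 passed with a fold change over 2, the size the study required, with edgeR, DESeq2 or limma-voom, whereas 8.31% of tested genes did with edgeR. At an unadjusted p below 0.05, 8 of the 10 passed, beside 47.1% of all tested genes. In 6 genes the 5 values of one group lay wholly beyond the 5 of the other, against 23.1% of tested genes. In bulk tissue, fewer cells of a type and less RNA per cell cannot be told apart, which holds for every value below.

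**Figure D1:**
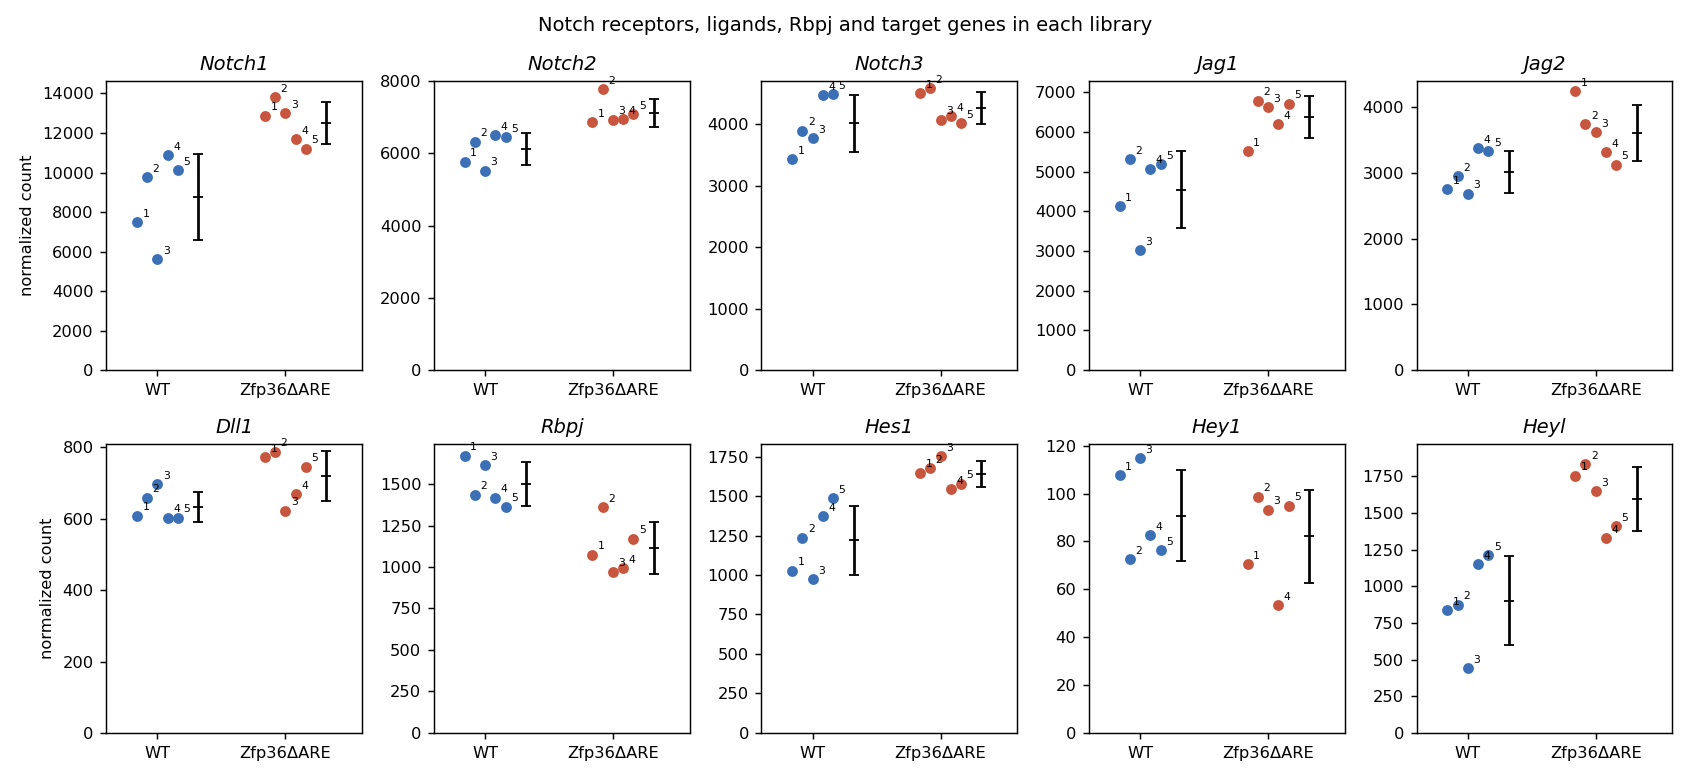
Normalized counts (vertical axes, from 0) of each Notch gene in WT (blue) and Zfp36ΔARE (red) libraries, numbered by replicate, with bars for mean ± SD of 5 mice. Notch1, Notch2, Jag1, Hes1 and Heyl lie higher in all Zfp36ΔARE libraries and Rbpj lies lower, while Notch3, Jag2, Dll1 and Hey1 overlap.

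Levels of different genes were set side by side per 1000 bases of gene length. In WT skin Notch1 was highest at 925 ± 229 normalized counts per 1000 bases (SD, n = 5), followed by Hes1 at 840 ± 150, Jag1 at 827 ± 176 and Jag2 at 745 ± 78.6. The ranges of neighbours in this order overlapped. Notch2 at 582 ± 42.1 and Notch3 at 505 ± 57.8 came next, with overlapping ranges, and lay wholly below Jag2. They were not apart from all genes above them. Notch2 reached 619 and Notch3 565, while Notch1 began at 593 and Jag1 at 551. Rbpj had 252 ± 22.5, Heyl 199 ± 67.4 and Dll1 185 ± 12.4, again with overlapping neighbours, and Hey1 was lowest at 41.2 ± 8.68, apart from all others. In Zfp36ΔARE skin Notch1 still led with 1319 ± 111 and Hey1 was still last with 37.3 ± 8.86, but Heyl at 352 ± 48.0 stood above Rbpj at 187 ± 26.6.

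Notch1 (Entrez 18128, minus strand of chromosome 2 from 26457903 to 26516663 in GRCm38) encodes the main receptor of the suprabasal epidermis. Its normalized counts were 7481, 9762, 5626, 10888 and 10127 in WT replicates 1 to 5, and 12867, 13810, 12992, 11699 and 11202 in Zfp36ΔARE replicates 1 to 5. Each Zfp36ΔARE library was above each WT library, though WT replicate 4 came close to Zfp36ΔARE replicate 5, and WT replicates 3 and 1 were the lowest. The mean was 8777 ± 2171 in WT and 12514 ± 1051 in Zfp36ΔARE skin (SD, n = 5 each). On the log2 scale the difference was 0.51 (standard error 0.163, 1.43-fold, edgeR adjusted p = 0.0353). The coefficient of variation between mice was 24.7% in WT and 8.40% in Zfp36ΔARE skin.

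Notch2 (Entrez 18129, plus strand of chromosome 3 from 98013527 to 98150361), a second receptor of the epidermis, showed a smaller difference. Normalized counts were 5772, 6330, 5519, 6500 and 6457 in WT and 6872, 7779, 6931, 6943 and 7086 in Zfp36ΔARE replicates 1 to 5. The groups did not overlap, and Zfp36ΔARE replicate 2 stood well above the other 4 of its group. The log2 fold change was 0.22 (standard error 0.0684, 1.16-fold, edgeR adjusted p = 0.0323).

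Notch3 (Entrez 18131, minus strand of chromosome 17 from 32120820 to 32166852), a receptor known from vascular smooth muscle and pericytes, had 3433 to 4489 normalized counts in WT (median of the group 3895) and 4014 to 4587 in Zfp36ΔARE skin (median 4130). The groups overlapped, and the log2 fold change of 0.09 had a 95% interval from -0.10 to 0.27 (edgeR adjusted p = 0.431). The mural marker genes, those of the cells around vessels, were lower in Zfp36ΔARE skin for 6 of 9 genes, with a median log2 fold change of -0.81 and a summed level of 16641 to 20606 normalized counts in WT against 11693 to 15058.

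The receptor calls rested on many libraries at once. Notch1 lost its call without WT replicate 1 (edgeR adjusted p = 0.0811), Zfp36ΔARE replicate 1 (0.0646), replicate 2 (0.0775) or replicate 3 (0.0736). Notch2 lost it without WT replicate 1 (edgeR adjusted p = 0.0737) or 3 (0.0578), or without Zfp36ΔARE replicate 2 (0.0766), 3 (0.0556) or 5 (0.0559). Fewer of all tested genes passed in these fits too, against 34.3% with all libraries. The share was 22.1% without WT replicate 1 and 26.7% without WT replicate 3. Without Zfp36ΔARE replicate 1, 2, 3 or 5 it was 25.9%, 21.3%, 22.4% and 29.9%. Over the 10 fits with 1 library fewer, the log2 fold change ran from 0.39 to 0.60 for Notch1 and from 0.18 to 0.24 for Notch2.

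Jag1 (Entrez 16449, minus strand of chromosome 2 from 137081456 to 137116644), a Jagged ligand found in the epidermis and hair follicle, was the ligand that rose. Its normalized counts were 4127, 5309, 3026, 5072 and 5183 in WT and 5506, 6781, 6625, 6194 and 6701 in Zfp36ΔARE replicates 1 to 5. No values overlapped: WT replicate 3 was lowest, and Zfp36ΔARE replicate 1 was the lowest of its group and closest to WT. The mean rose from 4543 ± 968 to 6361 ± 529 (SD, n = 5 each), by 0.49 on the log2 scale (standard error 0.144, 1.40-fold, edgeR adjusted p = 0.0271).

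Jag2 (Entrez 16450, minus strand of chromosome 12 from 112907819 to 112929776), the related ligand, had 2688 to 3377 normalized counts in WT (median 2950) and 3128 to 4244 in Zfp36ΔARE skin (median 3624). The groups overlapped through WT replicates 4 and 5, and the log2 fold change of 0.26 (95% interval 0.04 to 0.47) had an adjusted p of 0.0605 with edgeR and 0.0366 with DESeq2. Dll1 (Entrez 13388, minus strand of chromosome 17 from 15367354 to 15376872), a Delta-like ligand linked to keratinocyte stem cells, had 603 to 697 normalized counts in WT (median 609) and 623 to 788 in Zfp36ΔARE skin (median 746). The groups overlapped, and its log2 fold change was 0.18 (95% interval 0.01 to 0.36, edgeR adjusted p = 0.0984). The ligands also moved on single libraries. Jag1 lost its call without WT replicate 1 (edgeR adjusted p = 0.0641) or without Zfp36ΔARE replicate 2 (0.0608), 3 (0.0603) or 5 (0.0530). In each of these fits a smaller share of all tested genes passed, as given with the receptors. Jag2 gained a call without WT replicate 4 (edgeR adjusted p = 0.0438) or Zfp36ΔARE replicate 5 (0.0431).

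Rbpj (Entrez 19664, plus strand of chromosome 5 from 53466152 to 53657362) encodes the DNA-binding partner of every Notch receptor, which represses targets when no Notch is active. It was the gene of the 10 that fell. Normalized counts were 1672, 1436, 1613, 1417 and 1363 in WT and 1075, 1361, 973, 992 and 1171 in Zfp36ΔARE replicates 1 to 5. Zfp36ΔARE replicate 2 came within 3 counts of the lowest WT library, replicate 5, and the other 4 Zfp36ΔARE libraries were clearly below WT. The mean fell from 1500 ± 134 to 1114 ± 158 (SD, n = 5 each), or -0.43 on the log2 scale (standard error 0.0998, edgeR adjusted p = 0.0123). This call held without any of the 10 libraries, with log2 fold changes from -0.51 to -0.39. The annotation holds processed pseudogenes of Rbpj that are not listed in the count table, and how fragments that match several places were counted is not given in the sources used here, so its level is uncertain to that extent.

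Among the targets, Hes1 and Heyl rose and Hey1 did not pass. Hes1 (Entrez 15205, plus strand of chromosome 16 from 30064384 to 30067796), the classical Notch-induced repressor, had 1027, 1238, 975, 1371 and 1485 normalized counts in WT and 1649, 1678, 1754, 1545 and 1577 in Zfp36ΔARE replicates 1 to 5. The Zfp36ΔARE libraries lay close together and above all WT libraries, and varied less between mice, with a coefficient of variation of 5.05% against 17.9%. The log2 fold change was 0.43 (standard error 0.111, 1.35-fold, edgeR adjusted p = 0.0174), and it passed without any of the 10 libraries (0.36 to 0.51).

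Heyl (Entrez 56198, plus strand of chromosome 4 from 123233556 to 123249875), a Hey repressor better known from vascular smooth muscle, differed most of the 10 genes. Its normalized counts were 837, 875, 442, 1150 and 1210 in WT and 1756, 1833, 1647, 1330 and 1411 in Zfp36ΔARE replicates 1 to 5. WT replicate 3 was far below the rest, and the groups did not overlap. The mean rose from 903 ± 306 to 1595 ± 218 (SD, n = 5 each), by 0.82 on the log2 scale (standard error 0.229, 1.77-fold, edgeR adjusted p = 0.0221). The call was lost without WT replicate 1 (edgeR adjusted p = 0.0525) or Zfp36ΔARE replicate 2 (0.0532), fits in which fewer of all tested genes passed. Without WT replicate 3 the log2 fold change was 0.65 (edgeR adjusted p = 0.0114). As given above for Notch3, the mural marker list moved the opposite way.

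Hey1 (Entrez 15213, minus strand of chromosome 3 from 8663359 to 8667256), a related repressor, was the scarcest of the 10 genes with 40 to 117 counts per library. WT libraries had 72.7 to 115 normalized counts (median 82.5) and Zfp36ΔARE libraries 53.4 to 98.7 (median 93.3), and the groups overlapped. Its log2 fold change of -0.14 had a 95% interval from -0.60 to 0.32 (edgeR adjusted p = 0.615), so differences within that interval could not be told from none. Its coefficient of variation between mice was 21.1% in WT and 23.8% in Zfp36ΔARE skin.

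**Figure D2:**
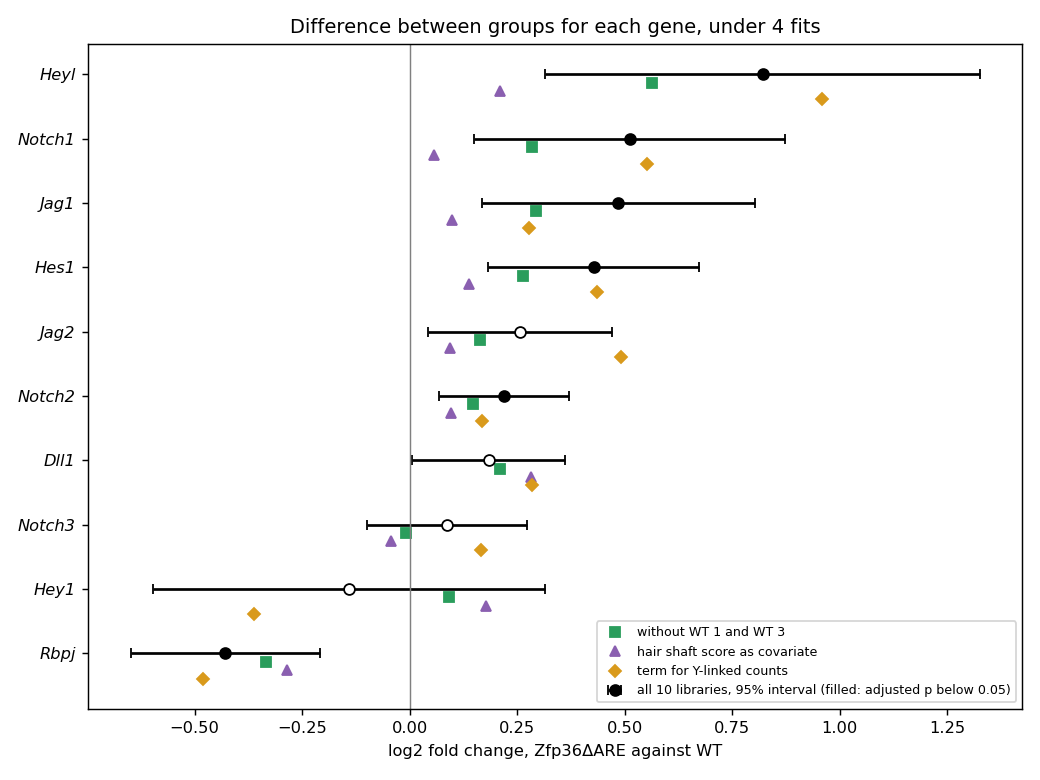
Log2 fold change of each Notch gene in Zfp36ΔARE against WT skin (black, with 95% interval, filled where the adjusted p is below 0.05) and under 3 other fits of the same counts. The hair shaft covariate (purple triangles) puts Notch1 at 0.06 and Heyl at 0.21, and leaving out WT replicates 1 and 3 (green squares) gives 0.29 and 0.56. The term for Y-linked counts (orange diamonds) gives 0.55 and 0.96, which compare Zfp36ΔARE replicate 1 alone with WT.

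Several cell type markers moved with these genes. All 11 hair shaft genes had non-overlapping groups, higher in Zfp36ΔARE skin, and their median log2 fold change was 2.28, although only 3 passed with edgeR (DESeq2 passed all 11). Their summed level was 2468 to 101330 normalized counts in WT and 156320 to 459440 in Zfp36ΔARE skin. Notch1 counts in the 5 WT libraries followed the order of their hair shaft scores, and Notch1, Notch2, Jag1, Jag2, Hes1 and Heyl were each lowest in WT replicate 3, the library with the lowest score. That library also had the highest score of the same kind for skeletal muscle genes (11.6) and for endothelial genes (5.59). How many of all tested genes are lowest in that library was not counted. Among WT libraries Dll1 and Hey1 were highest in that library, though Dll1 was higher still in Zfp36ΔARE replicates 1, 2 and 5.

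**Figure D3:**
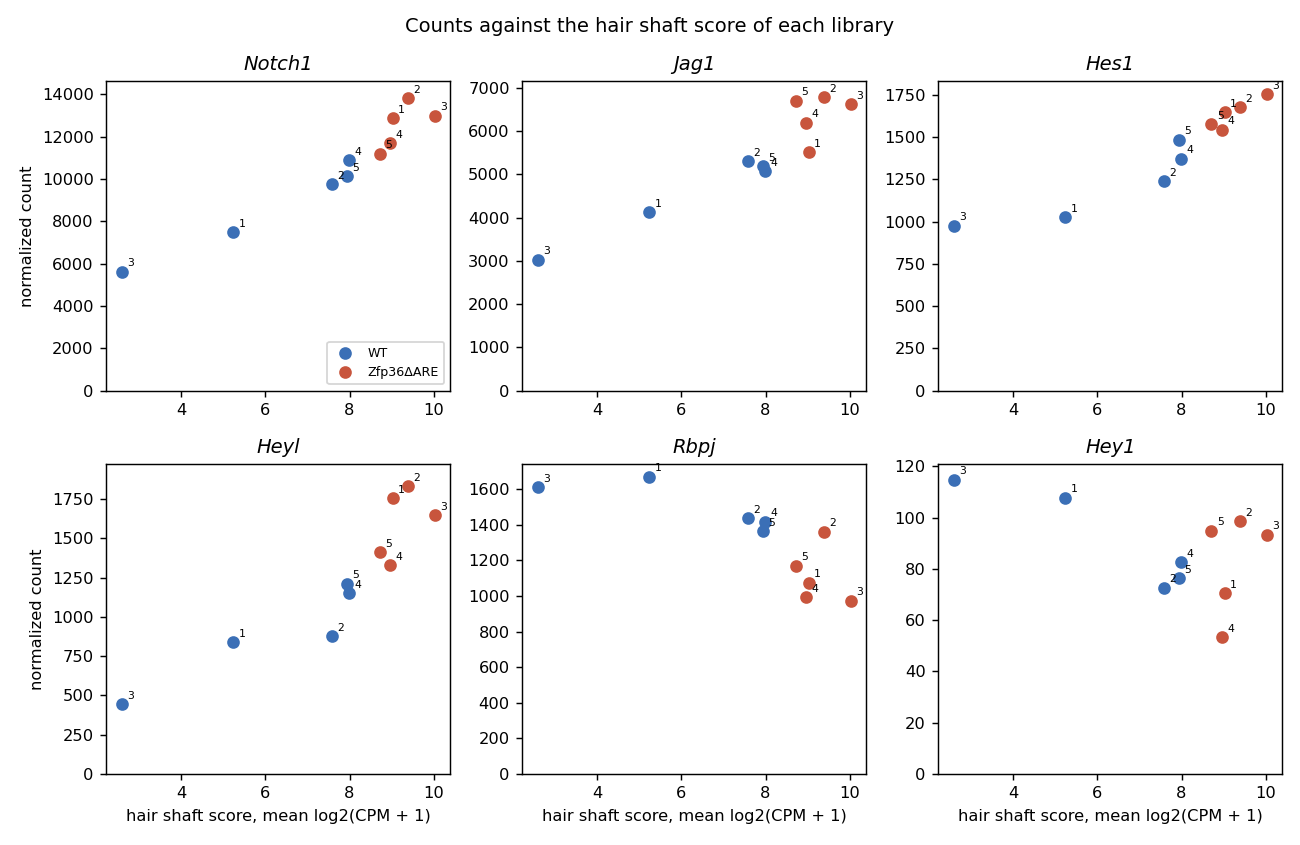
Normalized counts of 6 Notch genes (vertical axes, from 0) against the hair shaft score of each library, mean log2(CPM + 1) (horizontal axes), for WT (blue) and Zfp36ΔARE (red) libraries numbered by replicate. WT replicates 3 and 1, at scores of 2.59 and 5.24, have the lowest counts of Notch1, Jag1, Hes1 and Heyl and the highest of Rbpj and Hey1.

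With the hair shaft score as a covariate, the log2 fold changes were 0.06 for Notch1, 0.10 for Notch2, 0.10 for Jag1, 0.14 for Hes1, 0.21 for Heyl and -0.29 for Rbpj. In that edgeR fit 0 of the 10 genes passed (2 at an unadjusted p below 0.05), and 13 of all tested genes did (2179 unadjusted). The score did not overlap between groups, so no score had libraries of both groups to compare in that fit. The standard error fell for Notch1 (0.163 to 0.0864), Jag1 (0.144 to 0.094), Hes1 (0.111 to 0.081) and Heyl (0.229 to 0.154). It rose for Notch2 (0.0684 to 0.0738) and Rbpj (0.0998 to 0.126). What part score and genotype each had was not tested. Without WT replicates 1 and 3 together, Jag1 (0.29, edgeR adjusted p = 0.0382), Hes1 (0.26, 0.0430) and Heyl (0.56, 0.0286) passed, and Notch1 (0.29, 0.0516), Notch2 (0.15, 0.142) and Rbpj (-0.34, 0.0596) did not.

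Endothelial, skeletal muscle and macrophage markers moved the other way. With edgeR, 8 of 9 endothelial genes were lower in Zfp36ΔARE skin (median log2 fold change -1.03, summed level 6128 to 13396 normalized counts in WT and 3808 to 4916 in Zfp36ΔARE skin), 9 of 10 skeletal muscle genes (-1.47, 224120 to 1096200 and 131410 to 287130) and 9 of 9 macrophage genes (-1.35, 16066 to 33718 and 7926 to 12567). Of the remaining lists, 4 of 7 fibroblast genes, 4 of 6 adipocyte genes and 3 of 6 basal keratinocyte genes were lower, and 5 of 5 melanocyte genes were higher. The 7 inner root sheath genes, markers of another hair follicle layer, had a median log2 fold change of 1.36, and 0 of them passed with edgeR (6 at an unadjusted p below 0.05), 4 with DESeq2 and 0 with limma-voom. Of 7 tested genes of differentiated keratinocytes 1 was higher and 1 lower. With edgeR 0 of 5 T cell genes (0 at an unadjusted p below 0.05), 0 of 4 stress keratin genes (0) and 0 of 6 proliferation genes (2) passed, with median log2 fold changes of 0.03, 0.23 and 0.31, and 0 of each passed with DESeq2 or limma-voom. The tissue is skin by its markers, since basal and differentiated keratinocyte genes summed to at least 159650 and 202810 normalized counts in every library. With the endothelial score as a covariate the direction turned for Notch1 (-0.18), Jag1 (-0.087) and Heyl (-0.17) among the genes that had passed, in a fit where 0 of all tested genes passed (976 at an unadjusted p below 0.05).

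Zfp36ΔARE replicate 1, the 1 library of its group without Y-linked counts, lay above all WT libraries for 8 of the 10 genes and below all of them for Rbpj and Hey1. Its normalized counts were 1.45 times the highest WT value for Heyl, 1.26 times for Jag2, 1.18 times for Notch1 and 1.11 times for Dll1 and Hes1. They were 1.06 times that value for Notch2 and 1.04 times for Jag1. Notch3 (4504 against at most 4489 in WT) and Hey1 (70.4 against at least 72.7) were barely outside the WT range. How many of all tested genes lie outside the WT range in this library was not counted. It also had the highest depth, 36419573 counts, and a hair shaft score of 9.03, above all WT libraries. A term for Y-linked counts in the edgeR fit sets Zfp36ΔARE replicates 2 to 5 apart. The genotype difference in that fit is therefore Zfp36ΔARE replicate 1 alone against WT. Its log2 fold changes were 0.55 for Notch1, 0.44 for Hes1, 0.96 for Heyl, -0.48 for Rbpj and 0.28 for Jag1. They restate the values of this library and are no separate check. No tested gene passed in that fit (3382 of all tested genes and 3 of the 10 at an unadjusted p below 0.05).

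Whether genes of the same role differed from each other was asked with the log2 ratio of their normalized counts in each library, for 9 pairs, by exact two-sided permutation tests over the 10 mice (smallest possible p = 0.00794). Notch1 gained on both other receptors. The log2 ratio of Notch1 to Notch3 was 1.10 ± 0.302 in WT and 1.55 ± 0.0792 in Zfp36ΔARE skin (SD, n = 5 each), a difference of 0.46 (95% interval 0.21 to 0.78, exact permutation p = 0.00794, adjusted over the 9 pairs 0.0357) with no overlap between groups. That of Notch1 to Notch2 differed by 0.33 (0.04 to 0.66, exact permutation p = 0.0159, adjusted 0.0357). Notch2 to Notch3 did not pass, with a difference of 0.13 (-0.0010 to 0.25, exact permutation adjusted p = 0.1). Per length, Notch1 made up 45.4% ± 4.92 of the 3 receptors in WT and 52.0% ± 1.49 in Zfp36ΔARE skin (SD, n = 5 each), Notch2 29.3% and 26.8%, and Notch3 25.3% and 21.2%.

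Among the targets, Heyl gained on both others. The log2 ratio of Hes1 to Heyl went from 0.50 ± 0.373 to 0.05 ± 0.152 (SD, n = 5 each), a difference of -0.45 (95% interval -0.92 to -0.10, exact permutation p = 0.00794, adjusted 0.0357), and that of Hey1 to Heyl differed by -1.05 (-1.97 to -0.24, exact permutation adjusted p = 0.0357). Hes1 to Hey1 differed by 0.60 (-0.04 to 1.29, exact permutation adjusted p = 0.134). Hes1 remained the main target per length, at 77.9% ± 2.57 of the 3 in WT and 74.5% ± 1.98 in Zfp36ΔARE skin, and the share of Heyl was 18.0% ± 3.58 and 23.1% ± 1.85 (SD, n = 5 each).

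The ligand ratios did not pass. Jag1 to Jag2 differed by 0.26 (95% interval -0.11 to 0.62), Jag1 to Dll1 by 0.33 (-0.08 to 0.84) and Jag2 to Dll1 by 0.08 (-0.21 to 0.37), with exact permutation adjusted p of 0.134, 0.134 and 0.563. Jag1 and Jag2 together made up most of the ligand level per length in both groups, with 46.6% and 42.6% in WT, and Dll1 had 10.7%. The 4 pairs that passed did not hold up to leaving out libraries. Without WT replicate 3, or without any 1 of the Zfp36ΔARE libraries, 0 of the 9 pairs passed the adjustment (3 to 5 at an unadjusted p below 0.05). Without WT replicate 3 the log2 difference was 0.21 for Notch1 to Notch2 and -0.29 for Hes1 to Heyl, each over 1.5 times closer to 0 than with all libraries, and it was 0.33 for Notch1 to Notch3, -0.72 for Hey1 to Heyl and 0.16 for Jag1 to Dll1. Notch1 to Notch2 also did not pass without WT replicate 1 (exact permutation adjusted p = 0.0571).

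**Figure D4:**
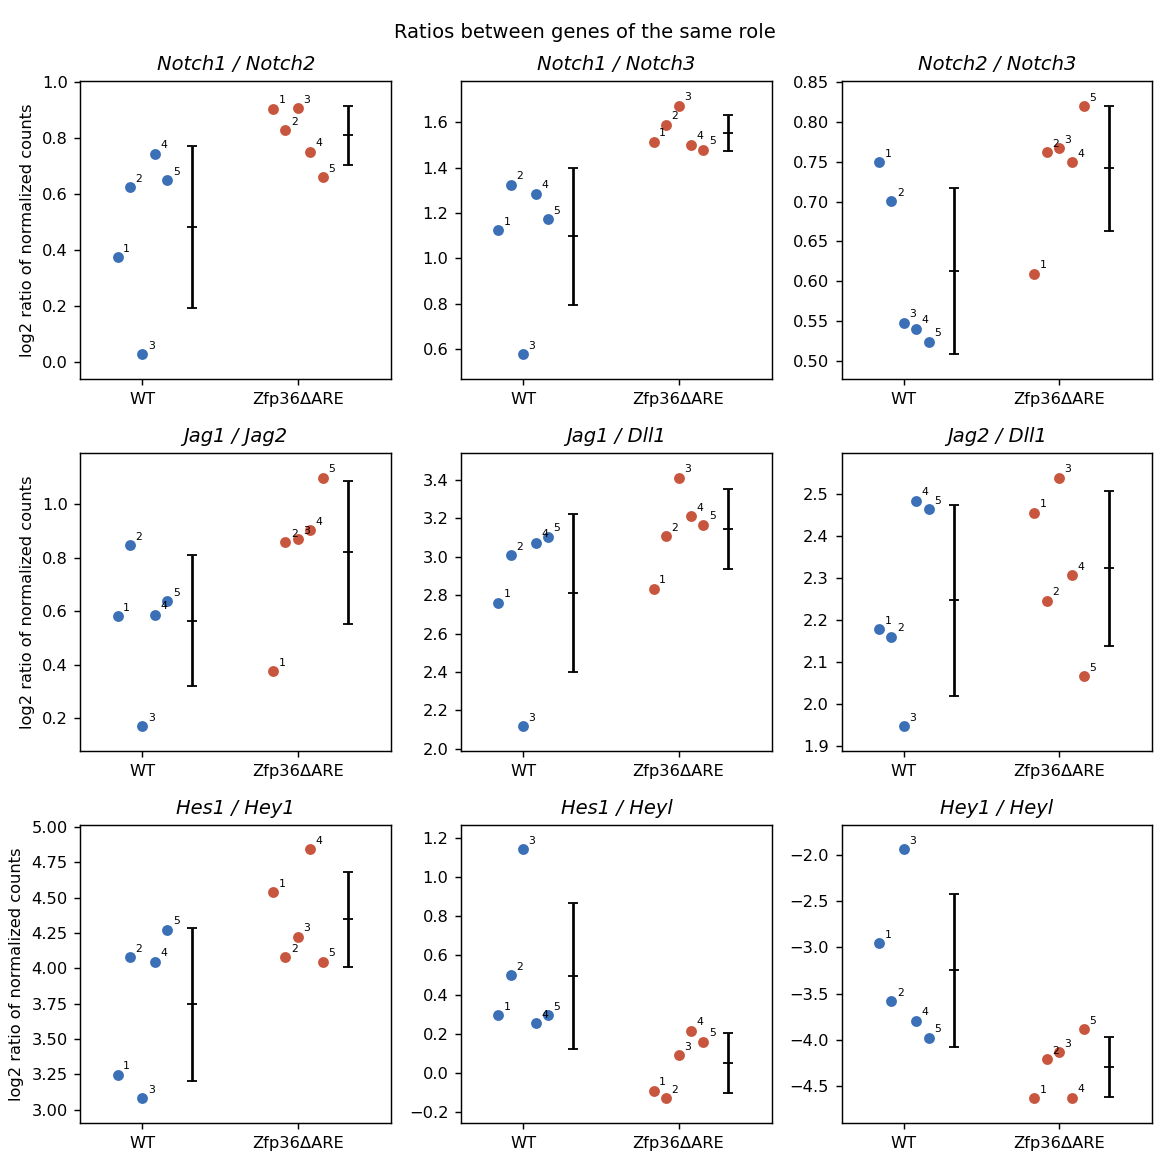
Log2 ratio of normalized counts for the 9 pairs of genes of the same role (vertical axes, not from 0) in WT (blue) and Zfp36ΔARE (red) libraries numbered by replicate, with mean ± SD of 5 mice. Notch1 to Notch3 and Hes1 to Heyl do not overlap between groups, and WT replicate 3 is the extreme library of both.

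Other genes of the pathway did not move as a block. Of 59 genes in 7 lists, 53 were tested and 18 passed with edgeR (34.0%), 8 higher and 10 lower, with a median log2 fold change of 0.04. Of all tested genes 34.3% passed, 15.3% higher and 19.1% lower. The counts per list below are to be read against those shares, and no test over a list was run. Dll3, Dlk1, Dner, Hes3, Hes5 and Hes7 had too few counts to be tested. Among the other ligands and receptors, Notch4 (185 ± 45.4 normalized counts in WT and 135 ± 35.6 in Zfp36ΔARE skin, SD, n = 5 each), Dll4 and Dlk2 had log2 fold changes of -0.45, -0.50 and -0.20 and edgeR adjusted p of 0.129, 0.175 and 0.484. Notch4 and Dll4 belong to the endothelium, whose 9 marker genes are given above.

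Of the other targets and feedback genes, Hes6, a Hes family member that counteracts Hes1, rose from 260 ± 20.8 to 412 ± 40.3 normalized counts (SD, n = 5 each) without overlap (log2 fold change 0.66, standard error 0.0925, edgeR adjusted p = 0.00401). Of the Deltex family of E3 ligases, Dtx1 fell from 63.8 ± 25.7 to 31.3 ± 8.33 (-1.01, edgeR adjusted p = 0.0254) and Dtx4 from 953 ± 259 to 575 ± 91.2 (-0.73, edgeR adjusted p = 0.0139), whereas Dtx2 and Dtx3 had log2 fold changes of 0.09 and 0.08 and did not pass. Nrarp, the Notch-induced inhibitor with the most counts of this list, had 2589 ± 586 and 2719 ± 451 (0.07, 95% interval -0.28 to 0.42). So 1 of 8 tested genes of this list rose and 2 fell.

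In receptor processing 3 of 10 genes fell and the other 7 did not pass. Adam17, a sheddase that can make the outer cut, fell by 0.25 on the log2 scale (edgeR adjusted p = 0.0146), and the gamma-secretase subunit genes Psen2 and Aph1c had log2 fold changes of -0.28 (0.0451) and -0.49 (0.0473). Adam10, the main sheddase of Notch, had 0.10 (95% interval -0.07 to 0.28), and Furin, the protease of the secretory pathway and the gene with the most counts here, had 0.08 (-0.13 to 0.29). Limma-voom passed 1 of these 10 genes where edgeR and DESeq2 each passed 3.

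Of 6 glycosyltransferases that decorate Notch, Eogt rose (log2 fold change 0.55, edgeR adjusted p = 0.00907) and Mfng (-0.87, 0.0120) and Pofut1 (-0.26, 0.0159) fell. Pofut1 adds the O-fucose on which Fringe enzymes build, Mfng is the Manic Fringe, and Eogt adds O-GlcNAc. Lfng, the Lunatic Fringe, was at 0.00 (95% interval -0.20 to 0.21). Of 8 genes of ligand and receptor turnover, Numb, an endocytic adaptor that antagonizes Notch, rose from 2229 ± 471 to 3242 ± 318 normalized counts (SD, n = 5 each) without overlap (0.54, edgeR adjusted p = 0.0177). Its paralog Numbl fell from 930 ± 36.3 to 700 ± 118 without overlap (-0.41, edgeR adjusted p = 0.0159). The ligand ubiquitin ligases Neurl1a (-1.23, 0.0204) and Neurl1b (-0.44, 0.0403) fell as well, whereas Mib1, with 0.32 (95% interval -0.19 to 0.84), did not pass.

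In the nucleus, 4 of 13 cofactors rose with edgeR and the other 9 did not pass. Maml3, a Mastermind coactivator, rose by 0.49 on the log2 scale (adjusted p = 0.0138), the acetyltransferase gene Kat2a by 0.27 (0.0215), Snw1, a component of the activation complex, by 0.17 (0.0208) and the corepressor Ctbp2 by 0.36 (0.0236). Maml1 and Maml2 had 0.14 and 0.13, and Ep300, the acetyltransferase p300 and the gene with the most counts among these, had 0.16 (95% interval 0.01 to 0.30, edgeR adjusted p = 0.0873).

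Keratinocyte genes placed under Notch control in textbooks did not move together. Ivl (involucrin), a cornified envelope protein, rose from 7585 ± 1104 to 11354 ± 2503 normalized counts (SD, n = 5 each, log2 fold change 0.58, edgeR adjusted p = 0.0197). Krt1 and Krt10, the early suprabasal keratins, had -0.37 (95% interval -1.29 to 0.54) and -0.62 (edgeR adjusted p = 0.0683), Cdkn1a, the cell cycle inhibitor p21, had 0.26 (0.125), and Trp63, the basal factor that opposes Notch, had -0.01 (95% interval -0.24 to 0.22). So 1 of 5 rose.

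**Figure D5:**
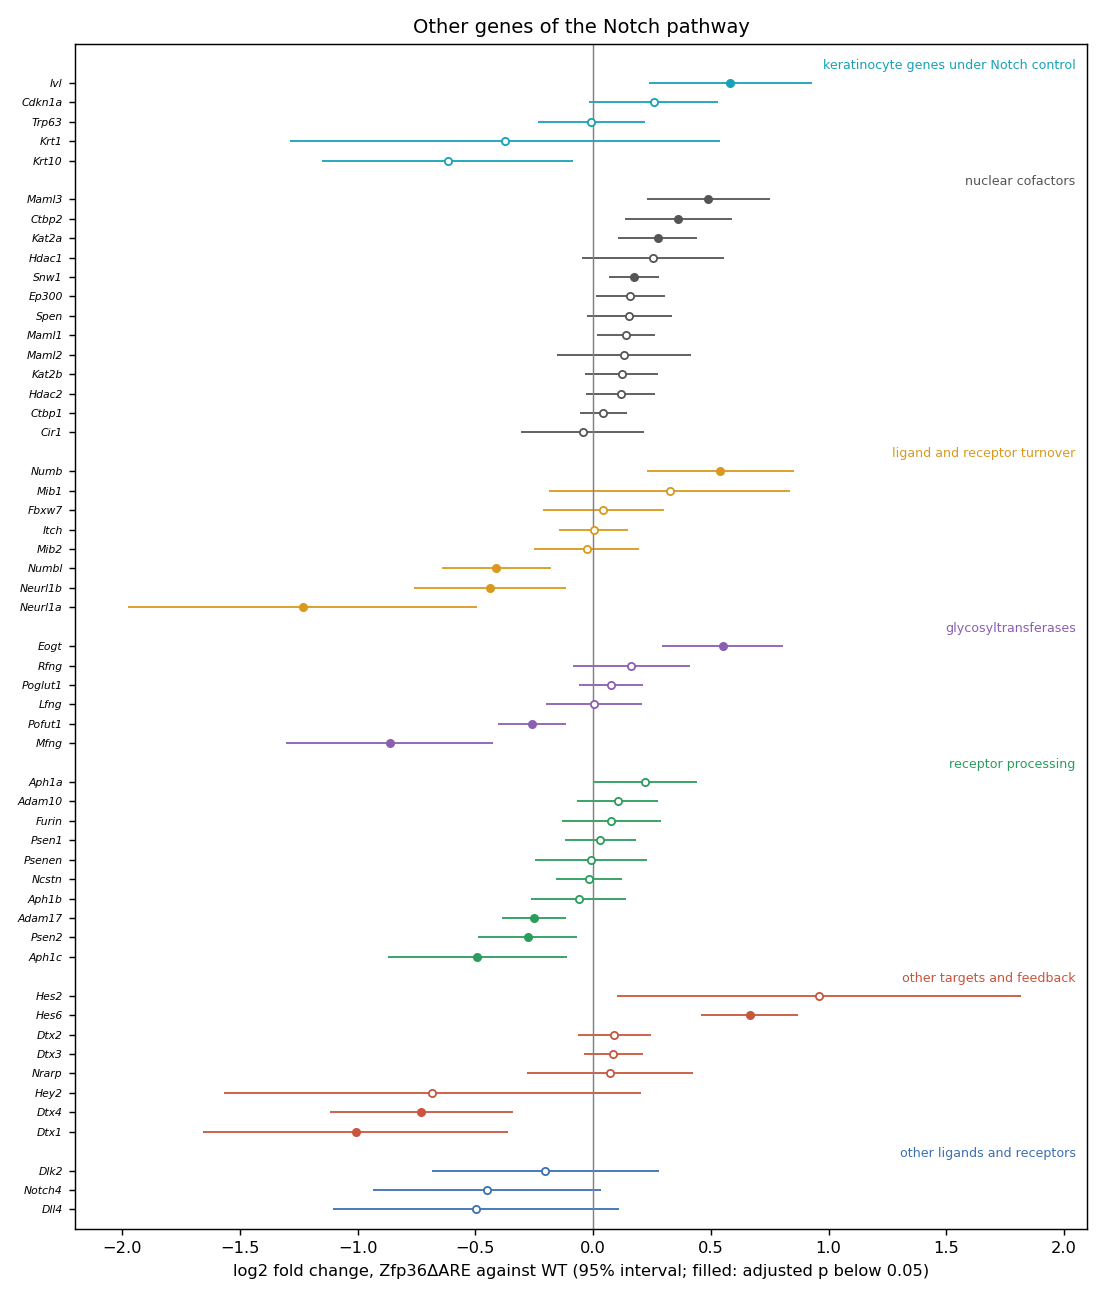
Log2 fold change with 95% interval (horizontal axis) of the 53 tested genes in 7 lists of other Notch pathway genes, in Zfp36ΔARE against WT skin, filled where the edgeR adjusted p is below 0.05. Filled points lie on both sides of 0, with 8 higher and 10 lower, and the widest shift is that of Neurl1a at -1.23.

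TTP binds AU-rich elements built on ATTTA, so the annotated 3′-UTRs of the Notch genes were searched for ATTTA and for the longer TATTTAT, on the transcript strand only, with overlapping matches counted. Of 14393 tested genes with a 3′-UTR in GENCODE M21 on GRCm38, 68.9% hold ATTTA and 29.5% hold TATTTAT. Jag1 had 10 ATTTA in 1568 bases, a number reached by 1.6% of the 2188 3′-UTRs of similar length (within 20%). Notch1 had 4 in 1628 bases (33% of 3′-UTRs of similar length have as many), Notch2 4 in 2917 (62.8%) and Dll1 3 in 676 (14.6%). Notch3 had 2 in 1000 (44.5%), Rbpj 6 in 3742 (53.4%), and Jag2 (74.4%) and Hey1 (76.2%) 1 each. Hes1 and Heyl had none, although the 3′-UTR of Heyl is 3245 bases long. TATTTAT occurred 5 times in Jag1, 4 times in Notch1 and once each in Notch3, Dll1 and Rbpj. Of 3′-UTRs of similar length, 34.3% hold it for Jag1, 34.5% for Notch1, 23.7% for Notch3, 19% for Dll1 and 57.4% for Rbpj.

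Sites from Jag1, the 3′-UTR with the most, from Notch1, and from Rbpj, the gene that fell, are printed below 5′ to 3′ on the strand of the gene, from the GRCm38 reference, with TATTTAT in capitals.
Jag1, chr2:137082663-137082692 (minus): gatcatagtttTATTTATatttattgactc
Jag1, chr2:137082539-137082568 (minus): aatgactttatTATTTATttttttttattg
Notch1, chr2:26459359-26459388 (minus): tttttttttagTATTTATttatgtactttt
Notch1, chr2:26459161-26459190 (minus): taaatgctgttTATTTATtgattgcttctt
Rbpj, chr5:53654390-53654419 (plus): ttaaagaaatgTATTTATagtggtaatcta
Of the genes with TATTTAT, Jag1 and Notch1 rose, Rbpj fell, and Notch3 and Dll1 did not pass. Of those with ATTTA but no TATTTAT, Notch2 rose, and Jag2 and Hey1 did not pass. Hes1 and Heyl, with no ATTTA, rose. Whether TTP acts on any of these mRNAs was not tested. A match is a string of letters, not a measured binding site.

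Promoters (250 bases before to 50 after the start, RefSeq on GRCm38.p6) were held for 7 of the 10 genes, 9 promoters in all. They were searched on both strands for TGGGAA, the core bound by RBPJ, which reads TTCCCA on the other strand, for its longer form GTGGGAA, and for TGACTCA, the AP-1 site of the TPA response. The core was in 25.6% of all 32851 promoters, the longer form in 6.38% and the AP-1 letters in 5.20%. Of the 9 promoters, those with the core were the 2 of Rbpj itself, the gene that fell, and they share 1 of the matches because they overlap. The core is in capitals.
Rbpj, chr5:53590185-53590214 (plus): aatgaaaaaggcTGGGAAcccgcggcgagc
Rbpj, chr5:53590269-53590298 (plus): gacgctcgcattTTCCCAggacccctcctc
The longer form and the AP-1 letters were in none of the 9 windows, which says nothing of sites elsewhere.

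Genes with the most similar pattern were ranked by Pearson correlation of log2 normalized counts over the 10 libraries, which share group, depth and tissue makeup. The nearest of 15542 genes to Notch1 were Plxna2 (0.995), Slain1 (0.994) and Gm11937 (0.991). For Heyl they were Dtnb (0.994), Dlx3, a homeobox factor of hair and differentiating epidermis (0.991), and Cux1 (0.990), and for Hes1 they were Txnrd1 (0.992), Gtpbp1 (0.991) and Cth (0.988). Jag1 was nearest to Utp15 (0.986), Ammecr1 (0.984) and Senp3 (0.982), and Notch2 to Gigyf2 (0.984), Pan2 (0.982) and Plekha8 (0.979). Rbpj followed Scoc (0.970), Aida (0.968) and Serpina3h (0.955). Of the genes that did not pass, Notch3 was nearest to Sfxn2 (0.954), Tubb4b (0.930) and Arhgap23 (0.910), and Jag2 to Gm10785 (0.969), Zfp251 (0.964) and A930013F10Rik (0.957). For Dll1 they were Map4k3 (0.923), 2810410L24Rik (0.899) and Kcnip3 (0.883), and for Hey1 they were Dnajc18 (0.976), Mrps31 (0.938) and Irs1 (0.935). Among the 10 genes themselves, Notch1 was closest to Heyl (0.971) and Hes1 (0.952), Dll1 and Hey1 correlated with no other above 0.576, and Rbpj ran opposite to Hes1 (-0.825).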

How the data were processed

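RNA-seq counts were analysed for 10 mice, 5 WT and 5 Zfp36ΔARE, grouped by the sample titles. The authors removed reads of mean quality below 20, aligned pairs to mm10 with STAR 2.5.2b, counted fragments per gene with featureCounts (Subread 1.5.0-p1) and deposited raw counts with a gene length in bases. The annotation, strand setting and treatment of multi-mapping fragments are not given in the sources used here. The study tested these counts with DESeq2.

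From the deposited counts, edgeR 4.0.16 (R 4.3.3) computed TMM factors, filtered low genes with filterByExpr and fitted the robust quasi-likelihood model with genotype as the only term. P-values were adjusted by Benjamini-Hochberg over 15543 genes. Genes without a name (2, holding 7.38e-05% of counts) were left out. Ratios used a pseudocount of 0.5. The biological coefficient of variation had a median of 14.9%. The fits were first tested on simulated counts.

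Alternatives were DESeq2 1.42.0, limma-voom (limma 3.58.1), scaling by size factors or upper quartiles, no low-count filter or a minimum of 10 counts per library, dispersions fitted without robust weights, a replicate block, a term for Y-linked counts, hair, muscle and endothelial scores as covariates, both WT libraries of lowest hair score left out, each library left out in turn, and a pseudocount of 5.

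All 10 Notch genes are named, as are other pathway genes that passed, the gene with the most counts of each list and the 3 nearest genes of each Notch gene. Dtx2, Dtx3, Dll4, Dlk2, Adam10, Lfng, Mib1, Maml1, Maml2, Krt1, Cdkn1a and Trp63 were added after their values were seen. Some genes of the lists are not reported here and are left out of the counts. The members and gene lists were chosen with earlier results of these data known.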

Additional observations from a re-analysis of the deposited data

Results flagged for a closer look

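In 38 groups of 5 libraries (the level of each Notch gene and the 9 log2 ratios, by genotype), 3 held 1 library whose gap to its nearest neighbour was over 0.71 of the whole range, where chance alone gives about 1.9. Notch2 was at 7779 normalized counts in Zfp36ΔARE replicate 2, and at 6872 to 7086 in its group otherwise (gap 0.763 of the range). The log2 ratio of Notch1 to Notch3 was 0.58 in WT replicate 3 against 1.12 to 1.33 in the other 4 (gap 0.731). The log2 ratio of Hes1 to Heyl was 1.14 in WT replicate 3 against 0.25 to 0.50 (gap 0.722). WT replicate 3 had the lowest hair shaft score, 2.59.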

How the results depend on the processing

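With 7 other tools, scalings and filters, 6 or 7 of the 10 Notch genes passed in place of 6, while the share of all tested genes that passed ran from 24.0% (no low-count filter) to 41.4% (DESeq2, the fit that gave 7), and 0 Notch genes passed with a fold change over 2 in all of them. Replicate numbers did not pair the mice (same-number correlations -0.173 to 0.0841, 0 of 5 WT libraries closest to their own number). A replicate block left 2 Notch genes (Jag1 up, Rbpj down, so 1 higher), 7 other pathway genes (3 higher, 4 lower) and 2740 of all genes.

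The term for Y-linked counts left 0 Notch genes, 0 other pathway genes and 0 of all genes (0 with a fold change over 2). The hair shaft covariate left 0, 0 and 13 (8 with a fold change over 2), the muscle covariate 0, 0 and 2 (2), and the endothelial covariate 0, 0 and 0 (0), each with 0 higher and 0 lower. Without WT replicates 1 and 3, 3 Notch genes passed (3 higher, 0 lower), 8 other pathway genes (2 of them lower), and 2504 of all genes (526 with a fold change over 2). Hair shaft scores (2.59 to 7.99 in WT, 8.71 to 10.0 in Zfp36ΔARE skin) and endothelial scores (4.50 to 5.59 and 3.92 to 4.19) did not overlap between groups. No hair shaft or endothelial score therefore had libraries of both groups to compare. The standard error of Notch1 was 0.163 in the main fit, 0.0864 with the hair covariate, 0.129 with the endothelial covariate and 0.285 with the Y-linked term. The fits of this paragraph also have fewer residual degrees of freedom. With the Y-linked term the genotype difference is that of Zfp36ΔARE replicate 1 alone against WT. That fit cannot tell the marks of sex from the genotype in the other Zfp36ΔARE libraries. The cause of the lost calls in the other fits was not tested.

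Direction turned for Notch1 (-0.18), Jag1 (-0.087), Jag2 (-0.0082), Heyl (-0.17), Notch3 (-0.12) and Hey1 (0.27) with the endothelial covariate, for Notch3 (-0.042) and Hey1 (0.18) with the hair covariate, for Notch3 (-0.0094) and Hey1 (0.091) without WT replicates 1 and 3, and for Hey1 (0.36) with the muscle covariate.

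Leaving out each library in turn gave 2 to 7 Notch genes (1 to 6 higher, 1 lower), 11 to 18 other pathway genes (5 to 9 higher, 6 to 10 lower), 3333 to 5349 of all genes and 839 to 1521 with a fold change over 2, and 0 to 5 of the 9 ratios. Hey1 had the fewest counts of the 10 genes, 40 to 117 per library, and Heyl the largest standard error (0.229, against 0.206 for Hey1).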
